A study of Mus musculus with 4 samples.

Results

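The Peg13 and Kcnk9 imprinted domain lies on mouse chromosome 15 and was described here through 5 genes, Peg13, Kcnk9, Trappc9, Chrac1 and Ago2. They were chosen by gene name from 46320 gene identifiers, and all 5 passed the minimum of 10 allele-assigned reads in each RNA library, as did 11981 genes in all. The regions of differing methylation between the alleles were taken from a window of 0.9 Mb around these genes, which held 2 of 1613 listed regions. The tissue was the prefrontal cortex of female mice aged 14 weeks, born to C57BL6J and Spretus parents, whose maternal copy of Xist was mutated. The comparison is within each library, between reads of the Spretus allele and reads of the C57 allele, so both alleles share the same animals, age and genotype. There were 2 RNA-seq libraries and 2 MethylC-seq libraries. MethylC-seq is bisulfite sequencing that reads methylation at single cytosines. Per the labels, tissue of 2 individuals from separate litters was pooled. The labels do not say whether the libraries of an assay are separate animals, and the p-values given therefore reflect the spread of these libraries alone, possibly technical.

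Imprinted genes are expressed mainly from the allele inherited from one parent, and a differentially methylated region set in the germ line usually marks which parent an allele came from. In this domain the mark is known to lie at Peg13, a long noncoding RNA gene inside an intron of Trappc9 that is expressed from the unmethylated paternal allele. Kcnk9, Trappc9, Chrac1 and Ago2 are known in mouse brain for more expression from the maternal allele, and in people maternal mutations of KCNK9 cause the Birk-Barel syndrome of intellectual disability. Reading the strain label as mother before father, C57 was taken as maternal and Spretus as paternal. The cross was made in 1 direction, so parent of origin and strain cannot be told apart for any gene here.

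The allele-assigned reads numbered 4768237 in library 1 and 1291903 in library 2, a ratio of 3.69, and the 5 genes supplied 3053 and 862 of these. Spretus supplied 47.9% of autosomal reads in library 1 and 48.0% in library 2. Xist, the mutated gene, was counted 2158 times from Spretus and 31 times from C57 in library 1, and 795 and 9 times in library 2. Markers of neurons, glia and projection neurons of the cortex were present, while the 3 choroid plexus, 3 cerebellum and 3 olfactory bulb markers had median FPKM values from 0.154 to 0.684 in library 1 and from 0.0122 to 0.243 in library 2. In library 1, 1 marker of each of these lists was above 1 FPKM, namely Ttr at 1.27, Neurod1 at 3.57 and Doc2g at 1.63. In library 2, 0 were. FPKM values are meant to scale fragments to transcript length and library size. The deposited values nevertheless had a median ratio of library 1 to library 2 of 5.62 over 8970 genes. As deposited, they are therefore not on 1 scale between the libraries, for a reason not given in the sources used here. Summed marker FPKM differed between libraries by 9.86 times for oligodendrocytes and by 4.40 times for neurons. Over all marker lists the ratio ran from 1.72 for choroid plexus to 15.0 for olfactory bulb, the values of both being low.

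Expression in the domain was split by allele. Peg13 was read almost only from the Spretus allele, Kcnk9 mostly from the C57 allele, and Trappc9 and Ago2 from both alleles with more from C57. By edgeR's quasi-likelihood test, 4 of the 5 genes passed an adjusted p of 0.05, with 1 toward Spretus and 3 toward C57, and Chrac1 did not. The same 4 passed in DESeq2 and in edgeR with the library as a block. Of all 11981 genes tested, 8.55% were called in either direction. Of the 11584 autosomal genes, 5.43% were called, with 2.39% toward Spretus and 3.04% toward C57. DESeq2 called 2.2% of them and the block fit 22.5%. With both alleles scaled to the same library total, 69.7% of the autosomal calls were toward C57, against 56.0% as fitted. The median autosomal gene drew 48.1% of its reads from Spretus, with an interquartile range of 43.9 to 51.8%.

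**Figure D1:**
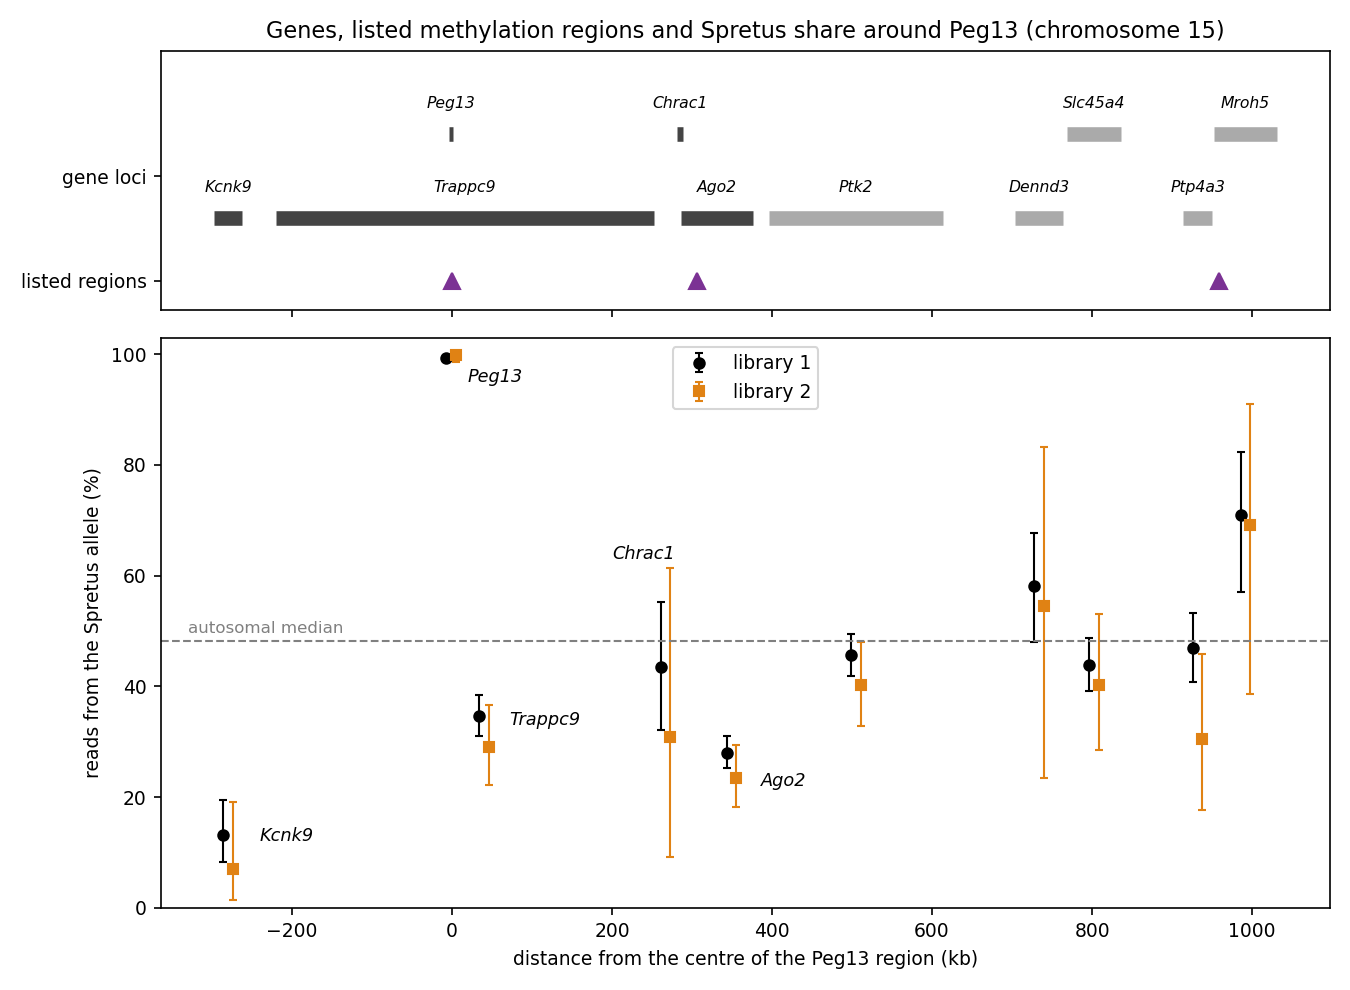
Upper panel: gene loci as bars and listed methylation regions as triangles, by distance in kb from the centre of the Peg13 region on chromosome 15, with neighbouring genes in light grey. Lower panel: percentage of allele-assigned reads from Spretus at each gene's midpoint in library 1 (circles) and library 2 (squares), with exact 95% intervals and the autosomal median of 48.1% as a dashed line. The points of Trappc9, Chrac1 and Ago2, and the 2 libraries of each gene, are moved sideways so that they can be told apart, and unlabelled points are the neighbouring genes in the order of their bars. Peg13 lies above 99% and Kcnk9 below 14% in both libraries.

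Peg13 is a noncoding RNA gene (ENSMUSG00000106847.1) at chr15:72805600-72810324 in mm10, a locus of 4725 bp that lies whole inside that of Trappc9. Library 1 held 1142 Spretus reads against 7 from C57, and library 2 held 413 against 1. Spretus reads were far above C57 reads in both libraries. In bulk tissue, fewer cells expressing a gene and less RNA per cell cannot be told apart. The Spretus share was 99.4% in library 1 (exact Clopper-Pearson 95% interval 98.7 to 99.8%) and 99.8% in library 2 (98.7 to 99.99%). These intervals overlap, and all intervals given here cover counting error only. Each C57 read was matched by 163 Spretus reads in library 1, with an interval of 78.9 to 407. In library 2 the ratio was 413 and rests on 1 C57 read, so its interval runs from 73.7 to 16352. The log2 ratio of Spretus over C57 was 7.85 (SE 0.39, adjusted p = 9.53e-08 by edgeR's quasi-likelihood test, Benjamini-Hochberg adjusted). Among tested autosomal genes, 20 had a higher mean Spretus share than Peg13. Among the 481 tested genes of chromosome 15, Peg13 ranked 1 by log2 ratio toward Spretus.

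Kcnk9 encodes TASK-3, a potassium channel of the two-pore family that carries a background current and helps to set the resting potential of neurons. It lies (ENSMUSG00000036760.6) at chr15:72512119-72546279, and 260 kb separate it from the methylated region at Peg13. Library 1 held 21 Spretus reads against 138 from C57, and library 2 held 3 against 40. C57 reads were more numerous in both libraries. The Spretus share was 13.2% in library 1 (exact 95% interval 8.37 to 19.5%) and 6.98% in library 2 (1.46 to 19.1%). In library 2, where 3 Spretus reads were counted, the ratio of Spretus to C57 reads was 0.0750 with an interval of 0.0148 to 0.235. The mean share was 10.1% ± 4.41 (SD, n = 2). The log2 ratio was -2.80 (SE 0.31, adjusted p = 4.98e-05 in edgeR's test), and 64 tested autosomal genes had a lower mean share. Spretus reads of Kcnk9 were counted in both libraries.

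Trappc9 encodes a subunit of the TRAPP II complex, which acts in vesicle transport, and is also known for a role in NF-κB signalling. Its locus (ENSMUSG00000047921.14) at chr15:72589621-73061204 is the longest of the 5. Library 1 held 235 Spretus reads against 443 from C57, and library 2 held 47 against 115. The Spretus share was 34.7% in library 1 (exact 95% interval 31.1 to 38.4%) and 29.0% in library 2 (22.2 to 36.7%), so both intervals lie below the autosomal median. The mean share was 31.8% ± 3.99 (SD, n = 2) and the log2 ratio -0.92 (SE 0.17, adjusted p = 0.00437 in edgeR's test). Peg13 lies inside this locus. Whether counting used strand is not given in the sources used here. Spretus reads of Trappc9 can therefore not be assigned to it alone.

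Ago2 encodes the Argonaute protein that cuts target RNA in microRNA and RNA interference complexes. It lies (ENSMUSG00000036698.10) at chr15:73095844-73184840, 284 kb from the Peg13 region and on the opposite side from Kcnk9. Library 1 held 278 Spretus reads against 713 from C57, and library 2 held 54 against 176. The Spretus share was 28.1% in library 1 (exact 95% interval 25.3 to 31.0%) and 23.5% in library 2 (18.2 to 29.5%). These values lie between those of Kcnk9 and Trappc9 in both libraries. The mean share was 25.8% ± 3.23 (SD, n = 2) and the log2 ratio -1.36 (SE 0.19, adjusted p = 4.33e-04 in edgeR's test).

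Chrac1 encodes a small histone-fold protein of the chromatin accessibility complex, a nucleosome-sliding complex. By the deposited loci it lies (ENSMUSG00000068391.7) at chr15:73090392-73097554 and shares 1711 bp with the locus of Ago2. Reads of that stretch can therefore not be assigned to either gene alone. The RefSeq annotation of GRCm38.p6 instead ends Chrac1 at 73094075 and starts Ago2 at 73101625, without an overlap. Library 1 held 33 Spretus reads against 43 from C57, and library 2 held 4 against 9. The Spretus share was 43.4% in library 1 (exact 95% interval 32.1 to 55.3%) and 30.8% in library 2 (9.09 to 61.4%), so each interval includes the autosomal median of 48.1%. The log2 ratio was -0.37 (SE 0.34, adjusted p = 0.674 in edgeR's test). A difference between the alleles of Chrac1 was not detectable at this depth.

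**Figure D2:**
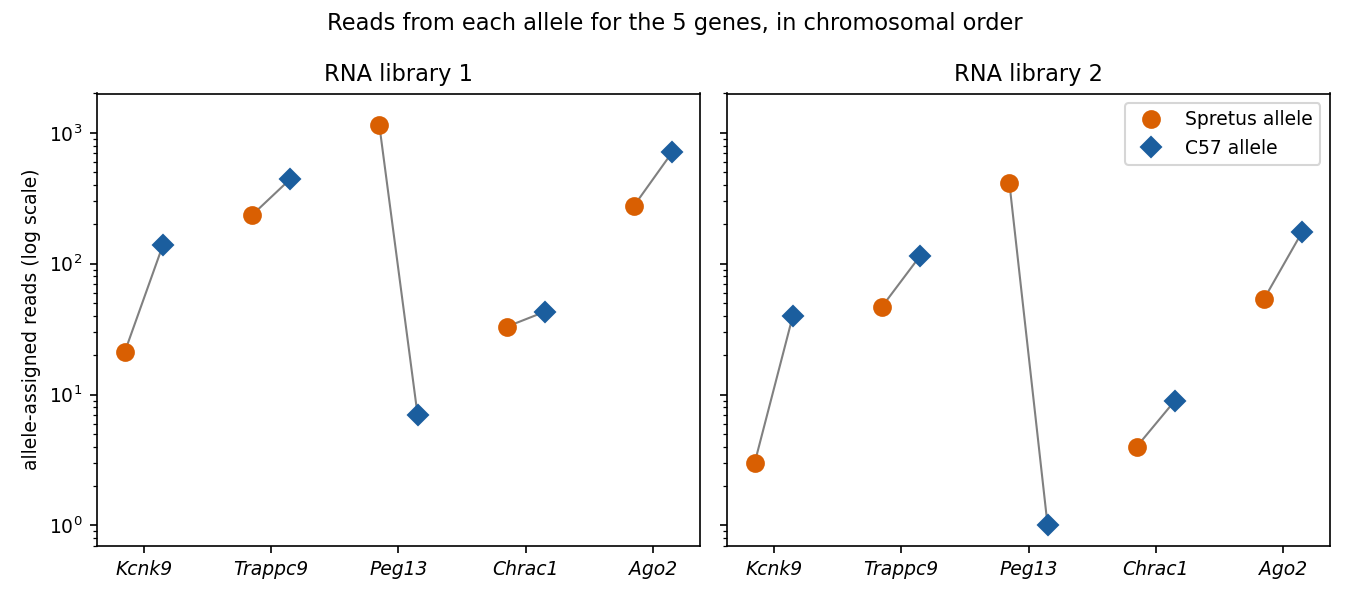
Allele-assigned reads (log scale) of the 5 genes in chromosomal order, with library 1 on the left and library 2 on the right. Circles are Spretus reads, diamonds C57 reads, and a line joins the alleles of a gene. Peg13 has more Spretus than C57 reads, with 1142 and 7 in library 1, and the other 4 genes have more C57 than Spretus reads in both libraries.

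The Spretus share did not change steadily along the chromosome. In chromosomal order, the mean shares were 10.1% for Kcnk9, 31.8% for Trappc9, 99.6% for Peg13, 37.1% for Chrac1 and 25.8% for Ago2. Fisher's exact test, two-sided, was run on the reads of each of the 10 pairs of genes within each library, with p-values adjusted over the 20 tests. This test compares genes within a library, and its p-values cover counting error only. Spretus reads of Trappc9 cannot be assigned to it alone, as said above, and these tests use them. By the deposited loci, the same holds for reads of the stretch shared by Chrac1 and Ago2. For 6 pairs the shares differed in both libraries, namely the 4 pairs with Peg13 and those of Kcnk9 with Trappc9 and with Ago2. Peg13 exceeded Chrac1, the member nearest to it in share, by 56.0 points in library 1 and by 69.0 in library 2. The share of Kcnk9 minus that of Trappc9 was -21.5 percentage points in library 1 (adjusted p = 7.43e-08) and -22.0 in library 2 (adjusted p = 0.00387). Against Ago2 the difference was -14.8 points in library 1 (adjusted p = 6.90e-05) and -16.5 in library 2 (adjusted p = 0.0180).

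For the other 4 pairs the outcome depended on the reads used. With the reads of both libraries summed, and with library 1 alone, 9 of the 10 pairs passed, Trappc9 and Chrac1 being the exception. Trappc9 had a higher share than Ago2 by 6.61 points in library 1 (95% interval 2.09 to 11.2, adjusted p = 0.00650). The same difference was 5.53 points in library 2 (-3.19 to 14.5, adjusted p = 0.268). Chrac1 was above Ago2 by 15.4 points in library 1 (4.42 to 26.9, adjusted p = 0.00836) and by 7.29 points in library 2 (-11.7 to 34.6, adjusted p = 0.543). Trappc9 and Chrac1 did not pass in either library, with differences of Trappc9 minus Chrac1 of -8.76 points (-20.5 to 2.42, adjusted p = 0.155) and -1.76 points (-29.4 to 17.8, adjusted p = 1). The share of Kcnk9 minus that of Chrac1 was -30.2 points in library 1 (adjusted p = 1.51e-06) and -23.8 points in library 2, where Chrac1 had 13 reads (adjusted p = 0.0542). On summed reads, the adjusted p of Fisher's exact test was 6.54e-08 for Kcnk9 and Chrac1, 0.00252 for Trappc9 and Ago2, 0.00539 for Chrac1 and Ago2 and 0.158 for Trappc9 and Chrac1. All these differences had the same sign in both libraries.

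All 4 genes with more C57 reads had a lower Spretus share in library 2 than in library 1, and their intervals overlap between the libraries. The oligodendrocyte and neuron markers also differed between the libraries by the factors given above, and their part in these shares was not tested.

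Beyond the domain, 1 of the nearest tested genes was called. Ptk2, the gene of focal adhesion kinase and next after Ago2, gave 314 Spretus reads against 375 from C57 in library 1, and 68 against 101 in library 2. It had a mean Spretus share of 42.9% ± 3.77 (SD, n = 2, log2 ratio -0.25, adjusted p = 0.519 in edgeR's test). On the Kcnk9 side, the nearest tested gene was Fam135b, 1079 kb from the Peg13 region, with a mean share of 48.8% ± 5.51 (SD, n = 2). The 10 nearest tested genes outside the window, 5 on each side, had mean shares from 36.9% to 70.1%. Of these, 1 was called, Mroh5, toward Spretus, against 5.43% called of all tested autosomal genes. Mroh5 was not called in DESeq2 (adjusted p = 0.592) or in edgeR with a shared library total (adjusted p = 0.0519). St3gal1, Zfat, Gm37296 and Khdrbs3 on one side and Dennd3, Slc45a4, Ptp4a3 and Adgrb1 on the other were not called. Between Fam135b and Kcnk9, the collagen gene Col22a1 had too few reads to be tested, with 7 Spretus reads against 25 from C57 in library 1, and 0 against 5 in library 2. Within the window, Gm24390, Gm28020 and Gm3150 had no reads, and the microRNA gene Mir151, inside Ptk2, had 1 Spretus read, in library 2. On chromosome 15 as a whole 22 of 481 tested genes were called, 9 toward Spretus and 13 toward C57, and by log2 ratio toward C57 Kcnk9 ranked 3, Ago2 8 and Trappc9 13.

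**Figure D3:**
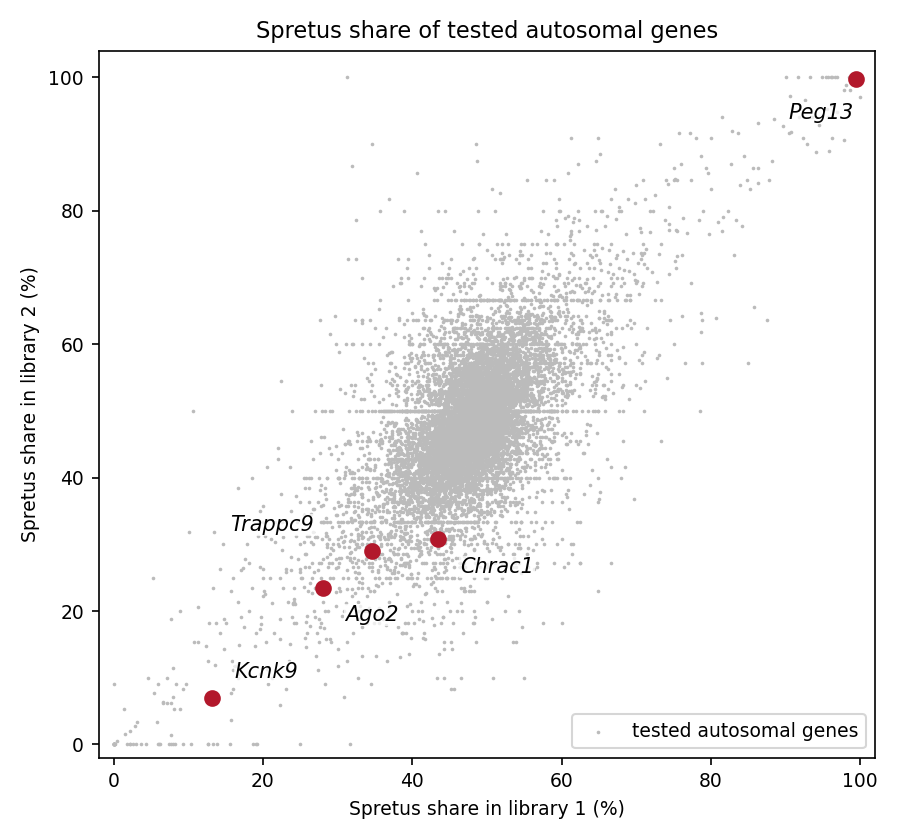
Spretus share in library 1 (x axis, %) against library 2 (y axis, %) for the 11584 tested autosomal genes, with the 5 domain genes in red. Most genes lie around the median of 48.1%, while Peg13 lies in the upper right corner and Kcnk9, Ago2, Trappc9 and Chrac1 lie below the centre.

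The genes with Spretus shares most like those of Peg13 and Kcnk9 were found among 7561 autosomal genes with at least 200 reads, by the larger of the 2 differences per library. This likeness rests on 2 libraries only. Nearest to Peg13 were Aldh3b3, the imprinted genes Mest and Snrpn, Snhg14 and Gm38393, all within 0.274 percentage points. Aldh3b3, on chromosome 19, gave 254 Spretus reads against 2 from C57 in library 1, and 53 against 0 in library 2. The loci of Gm38393 and Snrpn share 22570 bp on chromosome 7, and reads of that stretch cannot be assigned to either gene alone. Nearest to Kcnk9 were Ube3a, Bmp3, Clcn4-2, RP24-363O21.3 and BC030499, within 4.94 to 7.35 percentage points. Ube3a, the ubiquitin ligase gene of the Angelman region, gave 134 Spretus reads against 851 from C57 in library 1, and 36 against 266 in library 2. Its locus shares 3613 bp with that of Snhg14, which was read from Spretus, so the Spretus reads of Ube3a, and with them its likeness to Kcnk9, cannot be assigned to Ube3a alone.

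Total levels were highest for Peg13 among the 5 genes. Its FPKM, for both alleles together, was 44.1 in library 1 and 7.65 in library 2. Trappc9 stood at 14.2 and 2.08, Kcnk9 at 13.1 and 1.95, Chrac1 at 8.45 and 1.15 and Ago2 at 7.25 and 1.23. With the median library factor removed, the library 2 values became 43.0 for Peg13, 11.7 for Trappc9, 11.0 for Kcnk9, 6.49 for Chrac1 and 6.90 for Ago2. Peg13 was thus first in both libraries, while Chrac1 and Ago2 changed places. Trappc9 and Kcnk9 differed less from each other than each did between the libraries after this scaling. The log2 FPKM of Peg13 exceeded the median of the other 4 genes by 2.19 ± 0.17 (SD, n = 2).

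When each FPKM was divided between the alleles by the share of reads, the Spretus part was 43.8 FPKM for Peg13 in library 1, against a C57 part of 0.269. For Kcnk9 the Spretus part was 1.73 and the C57 part 11.3 FPKM, and for Trappc9 they were 4.91 and 9.26. For Ago2 they were 2.03 and 5.21, and for Chrac1 3.67 and 4.78. On this estimate, which assumes that allele-assigned reads represent all reads of a gene, Kcnk9 had the highest C57 part of the 5 genes in each library, with 1.82 FPKM in library 2.

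Genes of the same families and pathways at other loci were set beside the domain. Lists of two-pore potassium channels, TRAPP subunits, partners of Chrac1, microRNA machinery and factors of imprint maintenance with CTCF and cohesin held 52 genes, of which 50 were found on autosomes and 38 were tested. By edgeR's test 0 of these 38 were called, against 5.43% called of all tested autosomal genes. At an unadjusted p under 0.05 there were 4, and the share of all autosomal genes at that threshold was not computed. DESeq2 called 0 of the 38, against 2.2% of autosomal genes. With the library as a block, edgeR called 7, a share near the 22.5% of autosomal genes called in that fit, namely Kcnk1, Kcnk6, Kcnk10, Trappc13, Drosha, Prkra and Tnrc6b. The median log2 ratio of the 38 was -0.02, against 0.02 over all tested autosomal genes. Mean Spretus shares ran from 38.5% to 58.7% for 6 two-pore channels, from 48.5% to 54.8% for 3 partners of Chrac1, from 37.1% to 55.3% for 11 microRNA genes and from 43.3% to 53.0% for 9 factors of imprint maintenance, CTCF and cohesin. The TRAPP list also held the X-linked Trappc2, which gave 1 Spretus read against 85 from C57 in library 1, and 0 against 22 in library 2 (log2 ratio -6.31, adjusted p = 9.24e-06 in edgeR's test).

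Each of 3 domain genes was also compared with its tested relatives by Fisher's exact test within each library, with p-values adjusted over 36 tests. This comparison was chosen after the values were seen. The 3 genes were those already called toward C57, and Chrac1 was not compared. The p-values cover counting error only. Ago2 had a lower Spretus share than its paralogs Ago1, Ago3 and Ago4 in both libraries, and all 3 pairs passed in both. Ago1 gave 304 Spretus reads against 343 from C57 in library 1, and 66 against 71 in library 2, shares of 47.0% and 48.2%. Ago3 stood at 48.1% and 47.1%, and Ago4 at 53.5% and 52.6%. The largest adjusted p among these pairs was 1.11e-09 in library 1 and 0.00112 in library 2.

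Kcnk9 was lower than all 6 tested two-pore channel genes in both libraries, and 5 of the pairs passed in both. Kcnk2, which encodes the TREK-1 channel, had a share of 51.1% in library 1 and 59.7% in library 2, and Kcnk3, which encodes the closely related TASK-1, stood at 45.8% and 58.6%. The exception was Kcnk6, whose share of 22.4% in library 1 did not pass against the 13.2% of Kcnk9 (adjusted p = 0.190 in Fisher's exact test), while its share of 54.5% in library 2 rests on 11 reads. By FPKM in library 1, Kcnk9 (13.1) stood below Kcnk1 (28.9), near Kcnk2 (13.5) and above Kcnk4 (6.04) and Kcnk3 (3.19). Trappc9 was lower than all 9 tested autosomal TRAPP subunits in both libraries, and 6 of the pairs passed in both. Trappc3, Trappc4 and Trappc5 were those that did not, and the means of the 9 ranged from 40.5% to 51.0%.

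**Figure D4:**
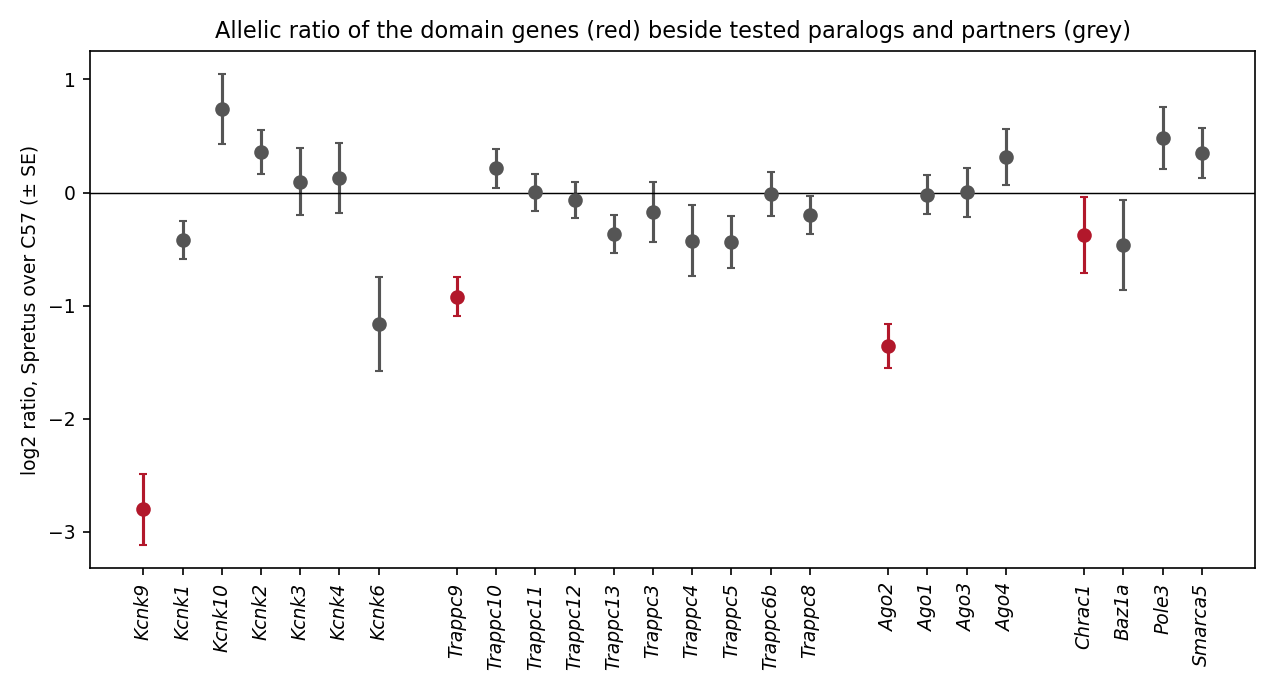
Log2 ratio of Spretus over C57 from edgeR, with its SE, for Kcnk9, Trappc9, Ago2 and Chrac1 (red) and for their tested autosomal paralogs or partner genes (grey). Kcnk9 at -2.80, Ago2 at -1.36 and Trappc9 at -0.92 lie below the grey points of their own group, and Chrac1 at -0.37 lies among its partners.

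DNA methylation differed between the alleles at 2 listed regions in the window, both lower on Spretus and higher on C57. The levels are those of the authors' deposited table, as fractions from 0 to 1, with no count or coverage, so they carry no error here. The first region, at chr15:72806561-72811582 in mm10, had in the authors' deposited table a level of 0.0683 on Spretus and 0.960 on C57, a difference of -0.89. It is 5021 bp long, the second longest of 1006 autosomal regions with levels and the longest of the 738 that were higher on C57. It covers 3764 bp, or 79.7%, of the Peg13 locus, leaves out 961 bp at one end, and runs 1258 bp past the other end into Trappc9. The allele with the low level at this region, Spretus, is the one from which Peg13 was read.

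The second region, at chr15:73115499-73115539, lies inside the Ago2 locus and is 40 bp long. In the authors' deposited table its level was 0.0787 on Spretus and 0.912 on C57, a difference of -0.83. The RefSeq annotation of GRCm38.p6 places the end of the noncoding gene Gm31725 14 bp before it. It lies 304 kb from the first region. Like this one, 409 of the 445 autosomal regions shorter than 50 bp (91.9%) had the higher level on C57, against 211 (58.4%) of the 361 regions of at least 200 bp. No listed region overlapped the loci of Kcnk9 or Chrac1, and a place outside the list has no known level here.

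**Figure D5:**
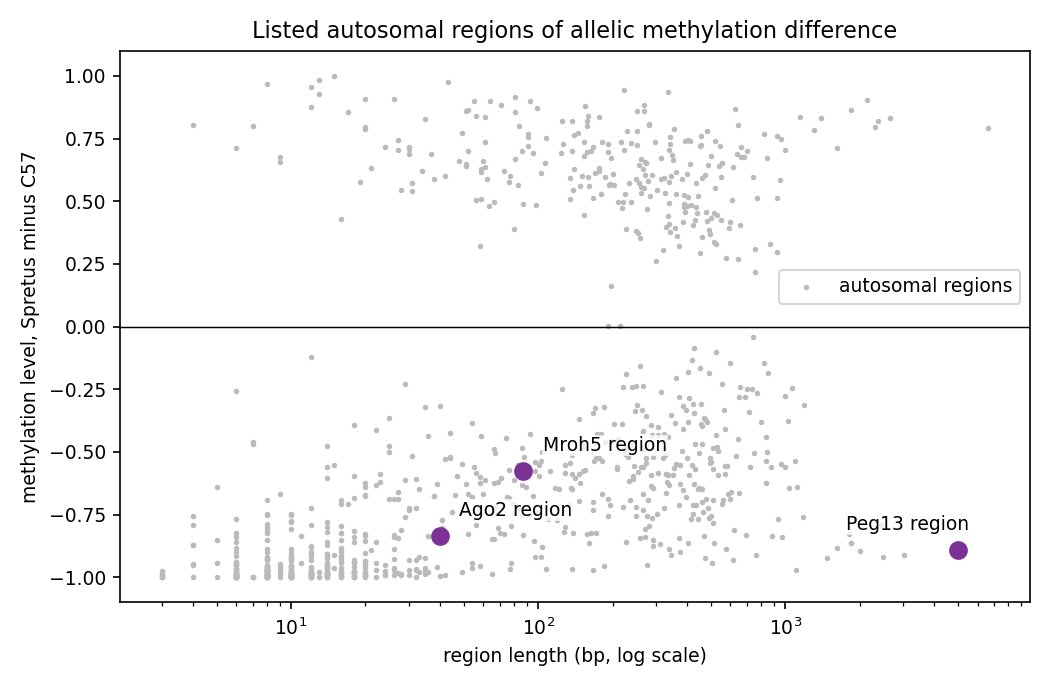
Length in bp (log scale) and methylation difference, as the Spretus level minus the C57 level, of the 1006 autosomal regions. The regions at Peg13 (5021 bp, -0.89), in Ago2 (40 bp, -0.83) and in the neighbouring Mroh5 are marked, and the Peg13 region lies at the far right of the regions that are lower on Spretus.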

How the data were processed

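Per the labels' protocols, ribosomal RNA was removed and libraries were made with a stranded kit. Per the submitters' processing notes, bedtools 2.2.4, HTSeq 0.6.0, Cufflinks 2.1.1, TopHat2 2.0.9 and mm10 were used, in roles not stated. How reads were assigned to alleles is not given in the sources used here. Per the file headers, the authors deposited raw counts per allele and gene, FPKM for both alleles together, and regions with the methylation fraction of each allele, of which 13 lacked levels.

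Genes reaching 10 allele-assigned reads in both libraries entered edgeR 4.0.16 (glmQLFit, glmQLFTest, TMM, allele as the only term) in R 4.3.3, with Benjamini-Hochberg adjustment over all 11981 genes. On simulated counts for 11763 genes this recovered 51.0% of genes changed 2-fold and 99.0% of those changed 4-fold. The simulated columns were drawn independently, with no pairing and no library differences of single genes. These rates therefore need not hold for the real data. The alleles of a library share their RNA, so the library pairs the columns by design. Their deviations had a correlation of 0.597 over 7565 genes. DESeq2 1.42.0, other scalings and filters, and a library block were alternatives. Total reads per gene differed between the libraries beyond sampling noise, the chi-square per degree of freedom being 4.59. For the Spretus share per gene it was 0.840, no more than counting noise gives. The main edgeR fit had no library term, so its errors also took in the differences in total reads between the libraries. The fit with a library block sets these differences aside. Gene starts in the files were raised by 1. The 49 identifiers at more than 1 locus had identical counts and were kept once. Intervals of differences between shares are Newcombe's. Named genes were the 5, all genes in the window, the 5 nearest tested genes on each side, the 5 most alike to Peg13 and to Kcnk9, called list members, and Xist as the check of the mutation. The paralogs and other list members not called, Col22a1 and Wisp1 fall outside this rule and were chosen after their values were seen. Genes and lists were chosen with earlier results of these data known. Trappc2, an X-linked gene, was kept in its list but reported apart.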

Additional observations from a re-analysis of the deposited data

How the results depend on the processing

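The 4 calls and the lack of one for Chrac1 held under every alternative that tested the gene, and all signs held. With at least 50 reads in each library, Kcnk9 and Chrac1 were not tested. With the library as a block, edgeR gave log2 ratios of 7.69 for Peg13, -2.75 for Kcnk9, -0.85 for Trappc9, -1.29 for Ago2 and -0.36 for Chrac1, and it changed no call among the 5 genes. When the alleles shared the library total, the median autosomal log2 ratio moved to -0.11, against 0.02, and 69.7% of autosomal calls were toward C57, against 56.0%. Leaving out a library left no residual degrees of freedom, so these ratios have no test. They were 7.33 to 8.53 for Peg13, -3.54 to -2.54 for Kcnk9, -1.18 to -0.78 for Trappc9, -1.02 to -0.24 for Chrac1 and -1.59 to -1.22 for Ago2.

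Counts over all genes depended on the fit. Against 1024 calls, there were 1808 with no low-count filter, 351 with at least 50 reads, 648 in DESeq2 and 2999 with the library block. Toward Spretus, against 278, they were 602, 68, 123 and 1292 under the same 4 settings and 168 with a shared library total. Toward C57, against 746, they were 1206 with no filter, 283 with at least 50 reads and 1707 with the block. A fit of autosomal genes only gave 513 calls, against 629 autosomal calls in the main fit. Of these 513, 287 were toward C57 and 226 toward Spretus, against 352 and 277 in the main fit. The excess of Peg13 over the other genes in log2 FPKM was 1.86 with a pseudocount of 1. Of the 2 regions in the window, 1 remained at a minimum of 50 bp or of 200 bp. The depth of library 2 limits Chrac1, with 13 reads, and Kcnk9, with 43.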

Other observations

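The nearest called gene on the Ago2 side was Mroh5, a HEAT-repeat gene at chr15:73761410-73839699 and 950 kb from the Peg13 region. It gave 39 Spretus reads against 16 from C57 in library 1, and 9 against 4 in library 2. The mean Spretus share was 70.1% ± 1.19 (SD, n = 2), and the log2 ratio was 1.38 (SE 0.33, adjusted p = 0.0203 in edgeR's quasi-likelihood test). The call was lost in DESeq2 (adjusted p = 0.592) and when the alleles shared the library total (adjusted p = 0.0519). The locus holds a listed region of 87 bp at chr15:73767666-73767753, with a methylation level in the authors' deposited table of 0.273 on Spretus and 0.849 on C57. Mroh5 and Peg13 were thus each read more from the allele with the lower level at the region inside or across their locus. Ago2, with a region of the same direction inside it, was read more from the allele with the higher level. So was Trappc9, whose locus the Peg13 region also overlaps. Of all autosomal regions with levels, 73.4% had the higher level on C57. The loci are few, and no relation between region and expression was tested. On the Kcnk9 side, the nearest called gene was Wisp1, 5883 kb from the Peg13 region, with a mean share of 19.3% ± 11.5 (SD, n = 2).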
